A study of Mus musculus with 6 samples.

Results

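The genes described here are regulators of vessel growth in the cornea: the VEGF family ligands Vegfa, Vegfb, Vegfd and Pgf, the VEGF receptors Flt1 and Kdr, the angiopoietins Angpt1 and Angpt2, the inhibitor Thbs1 and the vessel marker Pecam1. They were taken by symbol from a table of 17866 genes. Of the 10 symbols, 9 had a row, and Angpt1 was not analysed here. The libraries came from the corneal epithelium of C57BL/6 mice at 6 months of age. There were 3 wild-type (WT) and 3 Rela-/- (KO) libraries. Rela codes for p65, the main activating subunit of NF-κB. In the study's mice, Krt14-Cre cut a floxed Rela allele, so the deletion was directed at cells of the K14+ epithelial lineage and not at other cells that a sample might hold.

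The cornea has no blood vessels, and its transparency depends on this. VEGF-A acts on endothelial cells mainly through the kinase receptor KDR (VEGFR2). FLT1 (VEGFR1) binds VEGF-A, VEGF-B and PlGF, and a soluble form of FLT1 made in the cornea is known as a trap that keeps VEGF-A from its signalling receptor. Thrombospondin 1, the product of Thbs1, inhibits vessel growth and also activates latent TGF-β. The comparison of KO with WT epithelium asks whether the balance of these factors differed when Rela was lost. The tissue itself also differed. By the paper's account, the mutant central cornea at 6 months carried a keratinised, skin-like epithelium that had lost K12 and Pax6 and gained K1. It lay over remodelled stroma that held vessels and leukocytes. A direct effect of Rela loss cannot be told apart from this change of tissue.

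Libraries held 20158404 to 20880347 estimated read counts each, and 3 counts corresponded to between 0.144 and 0.149 CPM, the count scaled to the library total. Rela had 1871, 1844 and 1855 counts in the WT libraries against 318, 223 and 313 in the KO libraries, and edgeR gave a log2 fold change of -2.60 with an SE of 0.141 and an adjusted p of 2.74e-06. Replicates here were separate libraries, and p-values measure the spread between them. WT replicate 2 stood apart from the other WT libraries in several genes: it had 25395 counts of Krt14 against 5207 and 6712, and 1263 counts of S100a9 against 17 and 28. Markers of corneal epithelium had a summed level of 51210 to 53737 FPKM in WT and 16174 to 19494 FPKM in KO. FPKM are read counts scaled to transcript length and library total. The make-up of this sum also differed. Krt14 gave 159 to 759 FPKM of it in WT and 5485 to 6873 FPKM in KO. Krt5 gave 11904 to 13409 FPKM in WT and 4466 to 4823 FPKM in KO. Krt12 gave 21679.3 to 22946.5 FPKM in WT and 3181 to 4622 FPKM in KO. Of the 7 markers summed, 6 were lower in KO and Krt14 was higher. As the RNA was bulk, fewer cells of a type and less RNA per cell cannot be told apart.

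The upstream sequences printed here lie before 3 genes that the results turn on: Vegfa and Flt1, which were higher in KO, and Vegfb, which was lower. They are the 250 bases before the outermost RefSeq start on GRCm38.p6, read 5′ to 3′ on the gene's strand, and all are on the minus strand: Vegfa at chr17:46032378-46032627, Vegfb at chr19:6987652-6987901 and Flt1 at chr5:147726012-147726261. Capitals mark matches, on either strand, to the NF-κB consensus and to the hypoxia response core (ACGTG or GCGTG).
Vegfa: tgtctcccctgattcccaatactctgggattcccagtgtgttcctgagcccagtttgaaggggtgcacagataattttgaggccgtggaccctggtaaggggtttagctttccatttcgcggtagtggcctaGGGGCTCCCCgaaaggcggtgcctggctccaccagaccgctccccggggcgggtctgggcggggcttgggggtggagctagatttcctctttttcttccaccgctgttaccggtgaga
Vegfb: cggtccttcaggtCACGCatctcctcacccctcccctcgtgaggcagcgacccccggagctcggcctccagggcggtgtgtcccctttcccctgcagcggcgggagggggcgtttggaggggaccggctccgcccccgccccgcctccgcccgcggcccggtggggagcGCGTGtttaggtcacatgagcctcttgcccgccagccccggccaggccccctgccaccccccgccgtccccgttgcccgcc
Flt1: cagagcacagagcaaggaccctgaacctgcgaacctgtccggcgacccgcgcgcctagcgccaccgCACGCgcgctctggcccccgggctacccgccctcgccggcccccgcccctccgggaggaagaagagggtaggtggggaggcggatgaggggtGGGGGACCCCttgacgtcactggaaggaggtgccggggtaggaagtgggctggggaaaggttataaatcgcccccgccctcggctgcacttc
The Vegfa sequence held an NF-κB match at -118 to -109 from the start and no hypoxia core. The Flt1 sequence held an NF-κB match at -92 to -83 and a hypoxia core at -184 to -180. The Vegfb sequence held hypoxia cores at -237 to -233 and -81 to -77 and no NF-κB match. Of the 6 genes with a RefSeq promoter, 3 held the NF-κB consensus (Vegfa, Flt1 and Kdr), against 7.25% of 32851 promoters of this length. For Kdr, Pgf and Vegfd, which are not printed, the bases searched lay inside the gene span given below. Their matches are therefore not upstream of the outer end of that span. The hypoxia core was in 4 of 6 (Vegfb, Pgf, Flt1 and Kdr), against 38.6%. Each NF-κB match was found on both strands at the same position and is counted as 1 site, and no NF-κB match overlapped a hypoxia core. These matches describe letters and no binding was measured.

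Of the 9 genes, 6 had enough counts to be tested. In KO, 5 of them were higher (Vegfa, Vegfd, Flt1, Thbs1 and Pecam1) and 1 was lower (Vegfb), at an adjusted p of 0.05 in edgeR's quasi-likelihood test. Over all 13305 genes tested, 31.8% were called higher and 30.2% lower, 62% in either direction, so a call by itself was common in these libraries. The median log2 fold change of the 6 genes was 1.74, against 0.01 over all genes tested. Pecam1, with 1, 3 and 4 counts in the WT libraries, passed the count filter only through its KO libraries. A gene that low in WT is tested only where it is high in KO. The genes were also chosen with earlier results of these data known, so the median is a description and no test. The study used a stricter rule, a fold change of 2 or more with an adjusted p no higher than 0.001. Under it Vegfd was called higher, as were 11.6% of all genes, and Vegfb lower, as were 8.24%, with 19.8% in either direction. Vegfd missed this rule in 9 of 16 alternatives and Vegfb in 2 of 17, without KO replicate 2 or KO replicate 3 (adjusted p = 0.00113 and 0.00112, edgeR). For Vegfd the rule was missed without any one library but WT replicate 3 (adjusted p = 0.0016 to 0.00463), without a filter, with the length correction, with the replicate block and on log2(FPKM + 1).

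**Figure D1:**
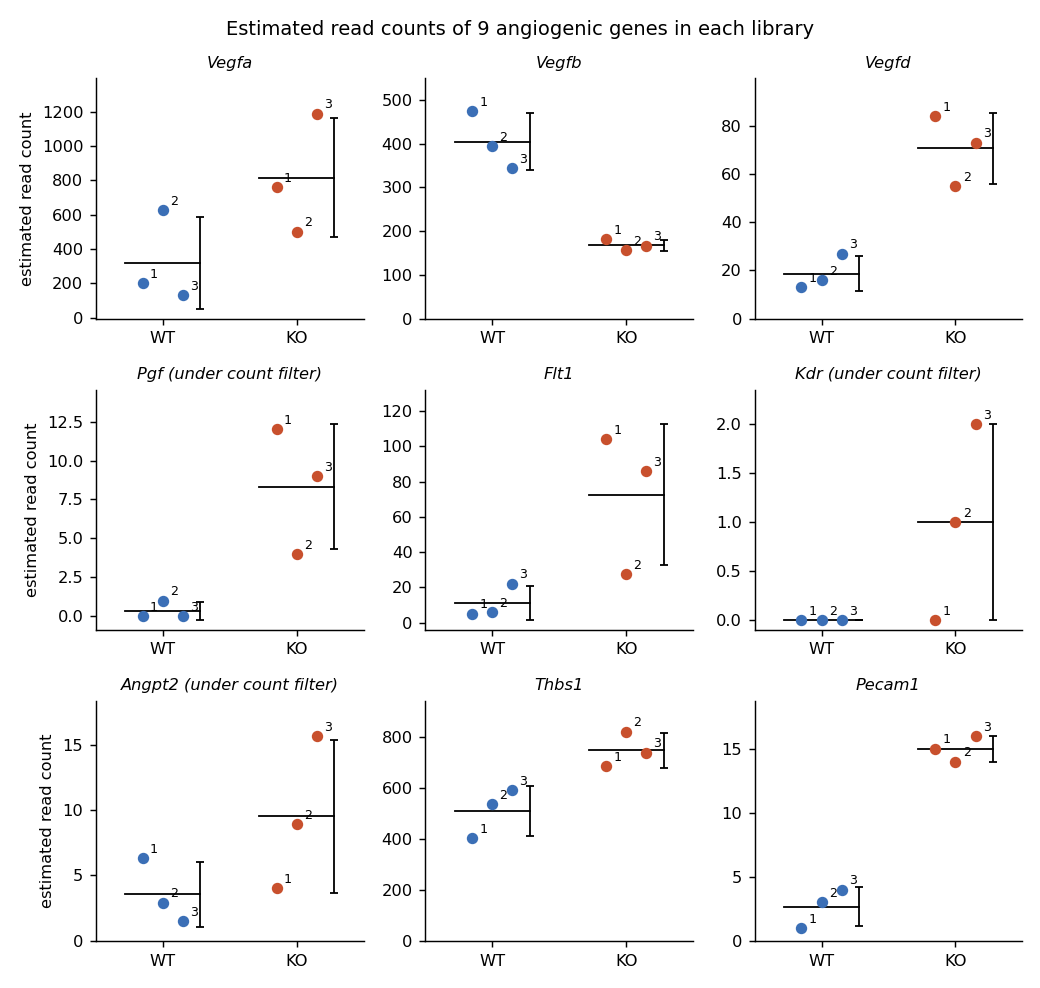
Estimated read counts (y axis) of the 9 genes in each WT and KO library, with replicate numbers beside the points. Horizontal bars are group means and error bars SD (n = 3). Vegfa of WT replicate 2, at 625 counts, lies among the KO libraries, whereas for Vegfb, Vegfd, Pgf, Flt1, Thbs1 and Pecam1 the groups do not overlap. Of all genes tested, 68.6% did not overlap in one direction or the other.

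Vegfa, gene ID 22339 on chromosome 17 (46016993 to 46032377, minus strand, GRCm38), encodes the principal growth factor for blood vessels. It had 201, 625 and 130 counts in WT replicates 1 to 3 against 758, 501 and 1187 in KO replicates 1 to 3. WT replicate 2 lay above KO replicate 2, so the groups overlapped. Mean levels were 14.8 CPM ± 12.4 in WT and 40.9 CPM ± 17.1 in KO (SD, n = 3). The edgeR log2 fold change was 1.46, with an SE of 0.540 and an adjusted p of 0.0424. Without WT replicate 2 it was 2.42 (adjusted p = 0.000796), and 8 of 17 alternative fits did not call Vegfa. The direction was the same in all 17, with log2 fold changes from 1.10 to 2.42.

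Vegfb encodes a ligand that binds FLT1 but not KDR and is a weak stimulus of vessel growth. It has gene ID 22340 and lies on chromosome 19 (6982472 to 6987651, minus strand). The WT libraries held 474, 394 and 344 counts of it and the KO libraries 181, 156 and 167. Every KO library was below every WT library, which 68.6% of tested genes also showed in one direction or the other. KO held 44.9% of the WT level, with 18.8 CPM ± 2.74 in WT and 8.44 CPM ± 0.679 in KO (SD, n = 3). The edgeR log2 fold change was -1.15, with an SE of 0.141 and an adjusted p of 0.000186, and it lay between -1.44 and -1.03 in the 17 alternatives.

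Vegfd, gene ID 14205 on chromosome X (164373000 to 164402650, plus strand), encodes a ligand known chiefly for lymphatic vessels. It was a low gene, with 13, 16 and 27 counts in the WT libraries against 84, 55 and 73 in the KO libraries. The groups did not overlap, as was the case for 68.6% of tested genes in either direction. The edgeR log2 fold change was 2.02, with an SE of 0.329 and an adjusted p of 0.000868.

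Pgf, gene ID 18654 on chromosome 12 (85166637 to 85177785, minus strand), which encodes placenta growth factor, a ligand of FLT1, was under the count filter. It had 0, 1 and 0 counts in the WT libraries against 12, 4 and 9 in the KO libraries. The pooled counts, 25 against 1, gave a ratio of 27.0 with an exact 95% interval of 4.41 to 1107 that covers counting error only. When no filter was applied, its adjusted p was 0.00593 (edgeR).

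Compared per length, the VEGF ligands among these genes, which do not include Vegfc, changed in proportion more than in sum. The summed level of Vegfa, Vegfb, Vegfd and Pgf was 21.9, 24.9 and 16.1 FPKM in WT and 20.8, 15.3 and 25.8 FPKM in KO. The sums overlapped, with means of 21.0 ± 4.49 and 20.6 ± 5.24 FPKM (SD, n = 3). Vegfb made up 84.8%, 61.1% and 83.8% of the sum in WT and 34.0%, 40.7% and 25.0% in KO. Vegfa made up 13.4%, 37.3% and 11.9% in WT and 53.8%, 49.5% and 66.6% in KO. Neither share overlapped between the groups, although WT replicate 2 was the nearest WT library to KO in both. The ratio of Vegfa to Vegfb FPKM was 0.158, 0.611 and 0.142 in WT and 1.58, 1.22 and 2.66 in KO, so Vegfb led in all 3 WT libraries and Vegfa in all 3 KO libraries. These shares were not tested, since Vegfa and Vegfb had already been tested singly. The mean share of Vegfd was 2.54% ± 1.58 for WT and 8.89% ± 1.59 for KO (SD, n = 3).

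**Figure D2:**
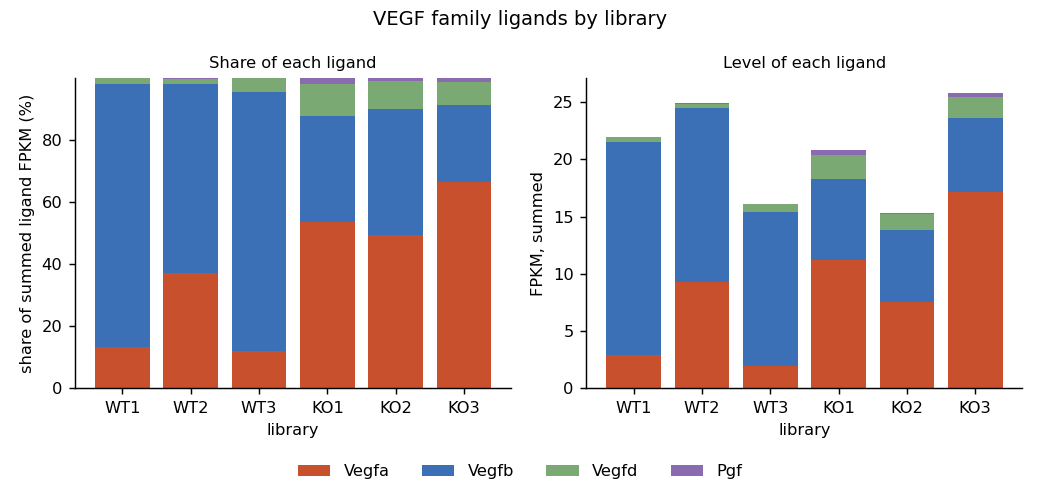
Left, shares of Vegfa, Vegfb, Vegfd and Pgf in their summed FPKM (y axis, %) in each library. Right, the same ligands stacked as FPKM. Vegfb fills 61.1% to 84.8% of the WT bars and Vegfa 49.5% to 66.6% of the KO bars, while bar heights on the right overlap between genotypes.

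The order of levels per length differed accordingly. In WT, Vegfb was highest at 15.8 FPKM ± 2.61 and did not overlap Vegfa, at 4.71 ± 3.99, which was not separated from Thbs1, at 4.15 ± 0.778 (SD, n = 3). Vegfd followed at 0.487 FPKM, and Flt1, Angpt2, Pecam1, Pgf and Kdr lay below 0.1 FPKM on average. In KO, Vegfa led at 11.97 FPKM ± 4.84, above Vegfb at 6.58 ± 0.445, which overlapped Thbs1 at 6.13 ± 0.667. Vegfd, at 1.80 FPKM, overlapped Flt1, at 0.980 FPKM, and Kdr, at 0.01 FPKM, was the lowest of the 9.

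Among the receptors, Flt1 was higher in KO and Kdr was near zero in both genotypes. Flt1, gene ID 14254 on chromosome 5 (147561606 to 147726005, minus strand), is expressed at low level here, with 5, 6 and 22 counts in the WT libraries against 104, 27.6 and 86 in the KO libraries. KO replicate 2 was the lowest KO library and still lay above WT replicate 3. Groups were separate in one direction or the other for 68.6% of tested genes. The edgeR log2 fold change was 2.81, with an SE of 0.644 and an adjusted p of 0.00518, and its size depended on the scale, from 0.82 on log2(FPKM + 1) to 3.83 without WT replicate 3 (adjusted p = 0.00288). Kdr, gene ID 16542, also on chromosome 5 (75932527 to 75979207, minus strand), had 0 counts in all WT libraries and 0, 1 and 2 counts in KO. Both genotypes were at or under a floor of 3 counts, so no fold is given.

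**Figure D3:**
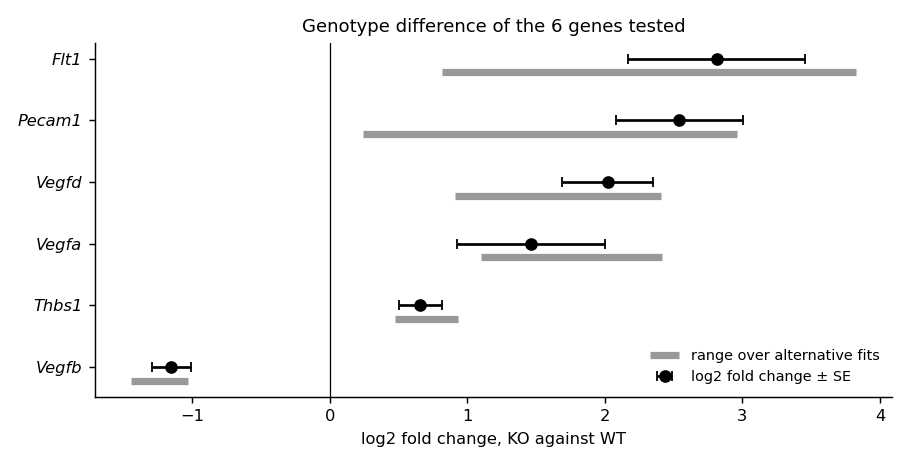
Log2 fold change, KO against WT (x axis), of the 6 genes tested; points with bars are the edgeR value ± SE, and grey bars span the alternative fits. Vegfb, at -1.15, is the gene below 0, and the Flt1 span from 0.82 to 3.83 is the widest.

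Flt1 differed more by its per-length values than by its counts: KO was 11.3 times WT by FPKM and 7.07 times by CPM. FPKM divides the count by the transcript length that RSEM assigned in that library, so count and FPKM together give an implied length, a measure chosen after the values were seen. For Flt1 it was 6031, 5772 and 6199 bases in WT and 3556, 4714 and 3322 bases in KO. Every KO library was shorter than every WT library, by 1.55 times on the means (6001 ± 216 and 3864 ± 746 bases, SD, n = 3), with a two-sided exact permutation p of 0.1, the smallest that 3 against 3 libraries allow. Among 11685 genes with more than 1 transcript and a resolved length, 0.163% were shortened by at least 1.5 times, and Flt1 ranked 12. Among 1979 such genes with a mean of at most 100 counts, the share was 0.556%. KO lengths all below WT lengths were found in 6.68% of the 11685 genes. The implied lengths of Vegfb and Thbs1 differed by less than 1% between genotypes, at 1234 against 1239 bases and 5909 against 5929 bases.

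GENCODE M21 lists 6 Flt1 transcripts, of which 2 are coding: one has 30 exons and 6895 nt, and the other ends earlier in the gene, after 13 exons, and has 6292 nt. The other 4 have 274 to 2049 nt. The deposited gene row lists 7 transcripts and gives no value for each, so which of them took the KO reads was not resolved. The WT lengths rested on 5 to 22 counts a library.

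**Figure D4:**
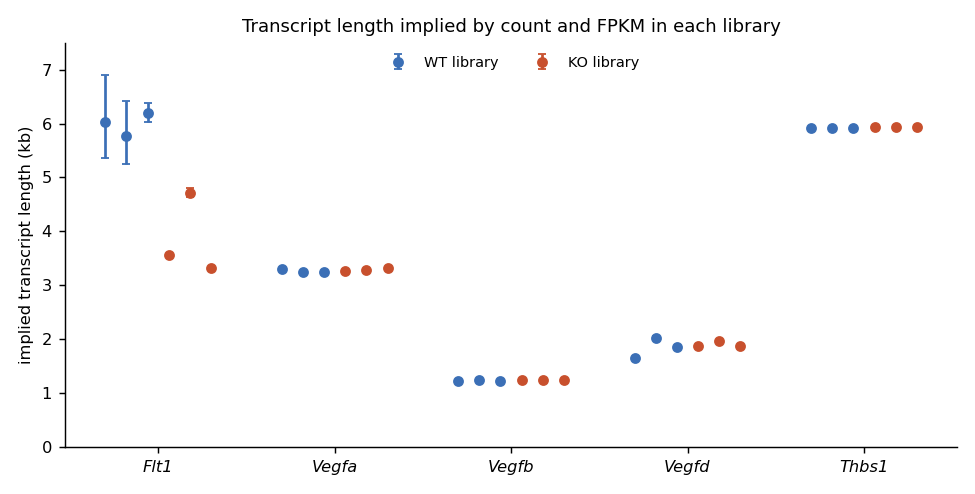
Transcript length implied by count and FPKM (y axis, kb) in each WT and KO library for 5 genes; error bars show the range that rounding of FPKM allows. Flt1 lies between 5772 and 6199 bases in WT and between 3322 and 4714 bases in KO, whereas the lengths of Vegfa, Vegfb and Thbs1 lie close together.

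Angpt2, gene ID 11601 on chromosome 8 (18690263 to 18741562, minus strand), encodes a ligand of the TEK receptor that loosens vessel walls. It had 6.30, 2.92 and 1.49 counts in the WT libraries against 4.02, 8.92 and 15.7 in the KO libraries. The groups overlapped and the gene was under the filter. Its pooled ratio was 3.13 (exact 95% interval 1.48 to 7.19, counting error only), and its adjusted p without a filter was 0.0979 (edgeR).

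Thbs1, the inhibitor, was modestly higher in KO. It has gene ID 21825, lies on chromosome 2 (118111876 to 118127133, plus strand) and had 403, 537 and 592 counts in the WT libraries against 685, 821 and 738 in the KO libraries. All KO libraries lay above all WT libraries, where 68.6% of tested genes did not overlap in either direction. The fold was the smallest of the 5 genes called higher. Mean levels were 23.8 CPM ± 4.89 and 37.5 CPM ± 3.31 (SD, n = 3), and the edgeR log2 fold change was 0.66, with an SE of 0.156 and an adjusted p of 0.00635. All 17 alternatives called it higher.

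Pecam1 encodes CD31, an adhesion molecule of endothelial cells that platelets and leukocytes also carry. It has gene ID 18613, lies on chromosome 11 (106654213 to 106750623, minus strand) and had 1, 3 and 4 counts in the WT libraries against 15, 14 and 16 in the KO libraries. Its level in KO was 0.753 CPM ± 0.0479 (SD, n = 3), and edgeR gave a log2 fold change of 2.54 with an SE of 0.465 and an adjusted p of 0.00162.

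Markers of endothelial cells were low in both genotypes, and their sum was higher in KO. Of 22 listed, 16 had a row and 8 of those never exceeded 5 counts in a library. Tek, the angiopoietin receptor, had 0, 1 and 1 counts in the WT libraries against 1, 2 and 0 in the KO libraries. Icam2 had 0 counts in all WT libraries and 3, 3 and 4 in KO. Ecscr had 1, 0 and 0 counts in the WT libraries against 23, 3 and 22 in the KO libraries, and Egfl7 had 2, 4 and 1 against 8, 13 and 9. Both were under the filter, with adjusted p of 0.00515 and 0.0149 when none was applied (edgeR). Mmrn2 had 0, 0 and 0 counts in WT against 1, 4 and 1 in KO, and She 0, 1 and 0 against 3, 1 and 1. By CPM the groups of these genes did not overlap either. The remaining listed markers under the filter overlapped between the groups. Eng had 11, 10 and 7.01 counts in WT against 8.99, 10 and 8 in KO, and Vwf 15, 4 and 12 against 4, 7 and 8. Esam had 6, 2 and 5 counts in WT against 3, 4 and 4 in KO, and Plvap 0, 4 and 4 against 5, 1 and 2. The summed level of the 16 was 1.06 to 1.24 FPKM in WT and 2.88 to 4.24 FPKM in KO. Of the 3 tested, Cd34, which is also found on other cells, had 0, 4 and 0 counts in the WT libraries against 69, 47 and 85 in the KO libraries (log2 fold change 5.63, adjusted p = 0.000183, edgeR; 9.11 without WT replicate 2). Rasip1 was higher by 0.91 (adjusted p = 0.0203), and lost the call without WT replicate 1, WT replicate 2 or KO replicate 1 (adjusted p = 0.0804, 0.0609 and 0.0716). Tie1 had a value of 0.39 (adjusted p = 0.279).

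Most leukocyte markers were also higher in KO. Of 18 tested, 16 were higher in KO and 1 was lower, with a median log2 fold change of 3.72 and a summed level of 96.5 to 231 FPKM in WT and 591 to 1519 FPKM in KO. S100a8 and S100a9 gave 397 to 1358 FPKM of the KO sums, and without them the sums were 86.6 to 104 FPKM in WT and 161 to 230 FPKM in KO. Ptprc, which encodes CD45, had 13, 5 and 8 counts in the WT libraries against 105, 87 and 123 in the KO libraries. Itgam went the other way, at a log2 fold change of -0.60 (adjusted p = 0.0113, edgeR). Fibroblast and keratocyte markers were higher for 6 and lower for 1 of 7 tested, with 17.9 to 31.4 FPKM in WT and 68.8 to 80.0 FPKM in KO, or 2.44 to 2.93 and 8.46 to 15.2 FPKM without Fbln1. The marker that was lower, Pdgfra, had 275, 235 and 330 counts in the WT libraries against 23, 28 and 21 in the KO libraries (log2 fold change -3.43, adjusted p = 4.7e-06, edgeR). Blood cell and platelet markers were higher for 3 of 6, with 5.48 to 7.12 FPKM in WT and 34.7 to 64.0 FPKM in KO. Ppbp, a platelet chemokine gene, gave 19.96 to 52.2 FPKM of the KO sums, and without it the sums were 4.89 to 6.99 and 10.4 to 14.8 FPKM. Hbb-bs, a globin of red cells, had 0 counts in WT and 28.1, 22 and 24.7 in KO. Itga2b, Gp1ba and Alas2 of this list were not called. Their log2 fold changes were 0.32, 0.21 and -0.27 (adjusted p = 0.120, 0.714 and 0.340, edgeR). Gp6, under the filter, was lower, with 5.69, 5.81 and 6.95 counts in WT against 3.26, 4.78 and 3.59 in KO. Pericyte and smooth muscle markers were higher for 4 and lower for 1 of 5, while their summed level was 41.6 to 52.3 FPKM in WT and 27.9 to 36.7 FPKM in KO, a sum in which Notch3 gave 8585 of 8666 counts in WT replicate 1. Without Notch3 the direction turned, with 1.06 to 2.26 FPKM in WT and 7.31 to 10.5 FPKM in KO. Of the lymphatic markers, Pdpn alone was tested, with a log2 fold change of -0.06 (adjusted p = 0.678, edgeR). Of 7 corneal epithelium markers, 6 were lower and Krt14 was higher. The shares to set beside each of these marker lists are 31.8% higher and 30.2% lower over all genes tested. Some listed genes passed the count filter only through KO, such as Adgre1 (1, 0 and 1 counts in WT) and Lyz2 (0, 2 and 2). Adamts1, Serpinf1 and Cxcl5 in the lists below did so too. Once tested, such genes could hardly be called other than higher, so list counts and medians are descriptions. The part of these cell types in the values of the angiogenic genes was not tested.

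Of the partners of these ligands and receptors, 6 were tested, of which 3 were higher, 0 lower and 3 not called. Over all genes, 31.8% were called higher and 30.2% lower. Nrp1, a co-receptor of VEGF-A, had 52, 76 and 142 counts in the WT libraries against 161, 205 and 150 in the KO libraries (log2 fold change 1.04, SE 0.339, adjusted p = 0.0266, edgeR), a call lost without WT replicate 1, WT replicate 2, KO replicate 1 or KO replicate 2 (adjusted p = 0.0637, 0.0673, 0.0537 and 0.0851). Nrp2, its relative, had a log2 fold change of 0.88 (adjusted p = 0.0528, edgeR), which passed without KO replicate 1 (1.13, adjusted p = 0.0192). Flt4, the receptor of VEGF-D, had 0, 0 and 2 counts in the WT libraries against 6, 1 and 4 in the KO libraries, under the filter. Adamts1, a protease that binds VEGF-A and releases fragments of thrombospondins, had 0 counts in all WT libraries and 359, 308 and 698 in KO, at least 151-fold higher against a floor of 3 counts per library (adjusted p = 5.1e-05, edgeR).

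Other inhibitors of vessel growth went in both directions. Of 13 tested, 7 were higher in KO, 3 were lower and 3 were not called, against 31.8% higher and 30.2% lower over all genes, and their median log2 fold change was 1.48. Serpinb5, which encodes the inhibitor maspin, carried most of their summed level, with 165 to 193 FPKM in WT and 243 to 306 FPKM in KO. Without it the sums overlapped, at 49.8 to 75.5 FPKM in WT and 50.8 to 58.6 FPKM in KO. Col18a1, the precursor of endostatin, had 22, 34 and 24 counts in the WT libraries against 1285, 894 and 1031 in the KO libraries (log2 fold change 5.43, SE 0.217, adjusted p = 7.21e-07, edgeR). Serpinf1, which encodes the inhibitor PEDF, was higher by 4.87 on the log2 scale and Timp1 by 3.73, or by 4.64 without WT replicate 2. Thbs2 was higher by 3.30, whereas Thbs3 had a value of 0.01 (adjusted p = 0.985). The inhibitors lower in KO were Timp3, which blocks binding of VEGF-A to KDR, at a log2 fold change of -1.56, Isg15 with -1.05 and Timp2 with -0.37. The call of Timp2 was lost without WT replicate 1, WT replicate 3, KO replicate 1 or KO replicate 2 (adjusted p = 0.0759 to 0.113, edgeR). Of the receptors of thrombospondin, Cd36 had 3, 1 and 1 counts in the WT libraries against 0, 1 and 5 in the KO libraries, and of 4 tested Calr alone was called, higher by 0.61.

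Other secreted angiogenic factors were mixed. Of 29 tested, 14 were higher and 9 lower, against 31.8% higher and 30.2% lower over all genes. Cxcl5, a chemokine that attracts neutrophils, had 0 counts in WT and 33.3, 72.0 and 63 in KO, and Il1b was higher by a log2 fold change of 4.99. Mmp9, a matrix protease that releases VEGF-A from the matrix, had 0, 0 and 1 counts in the WT libraries against 14, 40 and 27 in the KO libraries, with a log2 fold change of 5.98, or 7.82 without WT replicate 3. Those lower in KO included Angptl4, Cyr61 and Mmp14, with log2 fold changes of -2.06, -1.47 and -1.16.

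Vegfa and Flt1 are known targets of the hypoxia-inducible factors, and the genes of these factors went in opposite directions. Hif1a had 2205, 2367 and 1754 counts in the WT libraries against 7906, 7912 and 7187 in the KO libraries (log2 fold change 1.97, SE 0.125, adjusted p = 5.9e-06, edgeR). Epas1, which encodes HIF-2α, was lower, at -1.75 on the log2 scale (adjusted p = 4.37e-05). Of 9 genes of this pathway tested, 1 was higher and 5 were lower, among them Egln3, a hydroxylase that marks HIF-α for degradation, with -1.38. Over all genes tested, the shares called were 31.8% higher and 30.2% lower. Genes that respond to hypoxia were higher for 11 and lower for 1 of 17, with a median log2 fold change of 1.41 and a summed level of 509 to 624 FPKM in WT and 989 to 1264 FPKM in KO. Bnip3, a mitophagy gene of this list, had 47, 113 and 46 counts in the WT libraries against 903, 610 and 1232 in the KO libraries. Kdm3a was the response gene that was lower, with -0.41 (adjusted p = 0.0281, edgeR), a call lost without WT replicate 1, WT replicate 2, KO replicate 1 or KO replicate 2 (adjusted p = 0.0597 to 0.0897), and Higd1a was higher by 2.13. Ndrg1, Pdk1, Pfkfb3, Pfkfb4 and Mxi1, also response genes, were not called, with log2 fold changes from -0.16 to 0.05. The part of the hypoxia-inducible factors in the values of Vegfa and Flt1 was not tested.

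**Figure D5:**
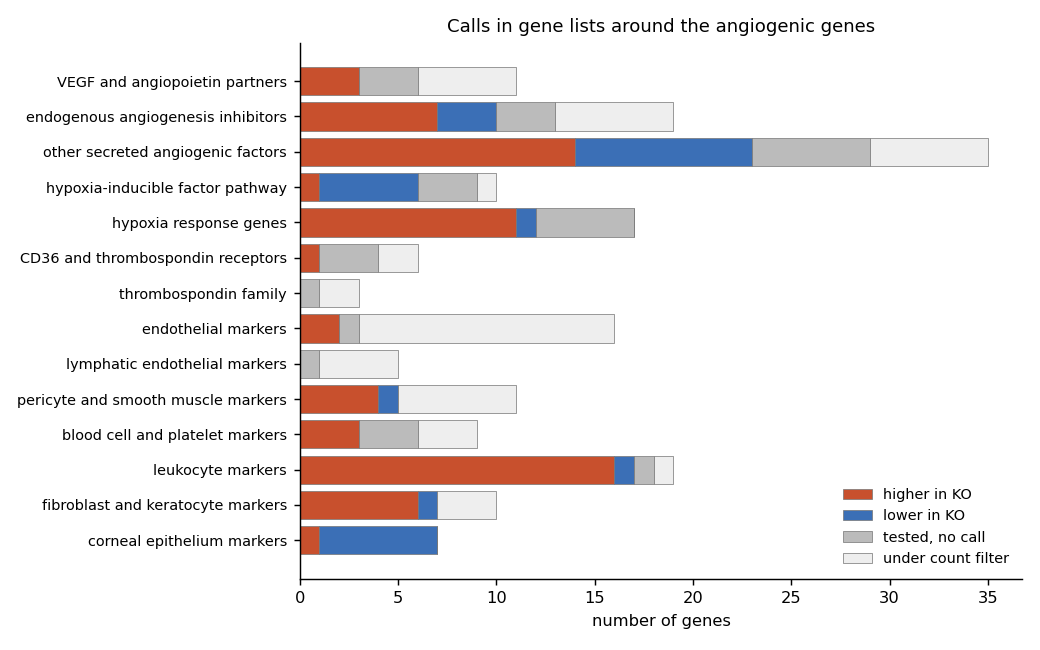
Number of genes (x axis) in each list around the angiogenic genes that were higher in KO, lower in KO, tested with no call, or under the count filter. Leukocyte markers (16 of 18 tested higher) and hypoxia response genes (11 of 17) are mostly higher, corneal epithelium markers (6 of 7) mostly lower, and 13 endothelial markers lie under the filter. Over all genes tested, 31.8% were higher and 30.2% lower. Genes near zero in WT were tested only where they were high in KO.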

How the data were processed

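RNA was measured in 3 WT and 3 KO libraries, grouped by title and genotype label. Per the study's methods, the authors depleted ribosomal RNA, sequenced single-end reads on a BGI instrument, filtered with SOAPnuke 1.5.2, aligned with Bowtie2 2.2.5 and estimated levels with RSEM 1.2.12, while the labels name an Illumina kit. The submitters' processing notes name mm9, but 99.98% of 17747 deposited gene positions overlapped the GRCm38.p6 RefSeq position. The deposited estimated counts are unnormalised; the deposited FPKM values divide them by length and library total, as do the deposited TPM values, which were checked only for their sum. The authors' own fold changes and p-values were not used. Whether counting used strand is not given in the sources used here.

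Rounded counts went into the quasi-likelihood test of edgeR 4.0.16 (R 4.3.3) after filterByExpr and TMM, with genotype as sole term and p-values adjusted by Benjamini-Hochberg over 13305 genes. CPM were scaled by TMM factors (1.01 to 1.05 in WT, 0.952 to 0.990 in KO). In simulated data for KO against WT over 13305 genes, 91 of 100 genes changed 4-fold, 69 of 99 changed 2-fold and 9 of 13016 unchanged genes were called. Few genes were changed there, whereas 62% of genes were called in the real data, so these rates need not carry over. Means were taken from WT, and genes without WT counts dropped out. Counts that were not whole made up 30.4% to 32.3% of each library's genes, and no replicate pair differed by less than sampling noise.

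The members and lists were chosen with earlier results of these data known. Named were all members, Rela, 10 listed genes and, per list, up to 3 called genes per direction with the largest log2 fold change and a mean of at least 20 counts in the higher group. Icam2, Ecscr, Egfl7, Eng, Vwf, Esam, Plvap, Ptprc, Thbs3, Serpinb5, Fbln1, Pdpn, S100a9 and Krt5 were named after their values were seen. So were Mmrn2, She, Itga2b, Gp1ba, Alas2, Gp6, Ndrg1, Pdk1, Pfkfb3, Pfkfb4 and Mxi1. Aldh3a1, entered under both the corneal epithelium and the fibroblast list by mistake, was taken out of the fibroblast list after its values were seen, as the recorded marker lists place it in the first alone; this removed 1 lower call. As 17 alternatives, the fit was repeated with DESeq2 1.42.0, total counts, RLE factors, TMM without the 20 highest genes, no filter, a minimum mean count of 50, robust dispersion, limma 3.58.1 on log2(FPKM + 1) and log2(FPKM + 0.1), a length correction, a replicate block and leaving out each of the 6 libraries. Intervals were exact binomial (scipy 1.17.1). Promoters came from RefSeq and Flt1 models from GENCODE M21. Python 3.11.15 with numpy 2.4.6, pandas 2.3.3 and matplotlib 3.10.9 handled tables and plots.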

Additional observations from a re-analysis of the deposited data

How the results depend on the processing

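Of 99 values of the 6 tested members over the alternatives, 91 kept direction and side of the threshold, and the other 8 were all of Vegfa, which lost its call in DESeq2 (adjusted p = 0.0793), without a filter (0.0522), with robust dispersion (0.118), with the replicate block (0.0554) and without WT replicate 1 (0.125), WT replicate 3 (0.0974), KO replicate 1 (0.0790) or KO replicate 3 (0.137). The cause was not tested. None reversed. The count of members higher in KO, 5, was therefore 4 to 5 when a library was left out, and 4 with the replicate block. It was 2 with a mean count of at least 50, where Vegfd, Flt1 and Pecam1 were not tested, and the calls of the lists fell from 69 to 45 higher for the same reason. Of 803 values of 48 other named genes, 773 kept their call, 27 lost it, 3 gained it and none reversed. Same-numbered libraries showed no shared deviation (r = 0.034, -0.010 and 0.061), and libraries of unlike number had r from -0.159 to 0.123. With 3 libraries a group, this cannot tell whether the replicate numbers are a pairing. Total counts alone moved the median log2 fold change of all genes to -0.09. Pgf, Kdr and Angpt2 were limited by depth, at 16 counts or fewer in any library.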
